A study of Mus musculus with 6 samples.

Results

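Promoter H3K27ac regions without Maf are stretches of acetylated chromatin at the starts of protein-coding genes in which no peak of the transcription factor Maf was called. The data are ChIP-seq peak lists from nuclei of gastrocnemius and quadriceps muscle, taken at 2 months of age from wild-type C57BL/6 N mice. Each antibody was used on 2 samples called biological replicates by the labels, 2 inputs bring the series to 6 samples, and there is no other genotype, age or treatment. Chromatin of a sample was sonicated and then divided between the Maf and the H3K27ac antibody, so the lists of a replicate are not independent of each other. The nuclei came from whole muscle, so myofibers and the other cell types of the tissue contributed to the same lists. The regions were selected on the peak lists themselves. Overlapping or touching regions of both H3K27ac lists (44887 and 44987 regions) were joined, which gave 52540 joined regions. Kept were those under 10000 bp that held bases of both lists, came to within 1 kb of a protein-coding start, and overlapped no peak of either Maf list. There were 9894 such regions, which is 18.8% of all joined regions and 24.9% of the joined bases. Because absence of Maf, width, presence in both lists and closeness to a start were used to choose the regions, these properties are given below as description and not as findings.

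The yield of each step was as follows. Of the joined regions on the reference chromosomes, 35202 lay in both lists, 11404 of these reached to within 1 kb of a start, and 10874 of these were under 10000 bp. A Maf peak overlapped 980 of the 10874, and 9894 (91.0%) remained. The Maf lists were unequal in size, with 74 peaks in replicate 1 and 5467 in replicate 2. Without Maf replicate 1 the number of regions was again 9894, and without Maf replicate 2 it was 10864, because only 10 promoter regions then overlapped a Maf peak. The absence of Maf therefore refers almost entirely to the list of replicate 2. The lists hold positions only. Read depth is unknown, the score column is 1 in every line, and the place of a region in its list is given as a percentile, where low values are near the top. The lists do not state how they are ordered, and long regions stood nearer the top. The labelled tissue was checked by 10 myofiber markers. All had an H3K27ac region of both lists at a start, which held no Maf and was under 10000 bp for 1 (Ttn), held Maf for 7, and was of 10000 bp or more without Maf for the other 2.

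H3K27ac is an acetyl mark on a lysine of the tail of histone H3. It is placed by the acetyltransferases p300 and CBP, is removed by histone deacetylases, and lies on nucleosomes at active promoters and enhancers. Most mammalian promoters lie in CpG islands, which are stretches that have kept their CpG dinucleotides because they are seldom methylated. Such promoters serve mainly genes used in most cells and are read by widely present factors such as Sp1, Nrf1, NF-Y, Yy1 and members of the ETS family. Promoters poor in CpG are more often those of genes used in few cell types. Maf is a bZIP factor that binds to elements with the core TGCTGAC.

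The following stretches of the reference genome (GRCm38, RefSeq) show what these promoters look like. Each is written along the named gene, and the capitals mark a motif, which may read as its reverse complement. The gene with the motif was, for each motif, the one whose region stood highest in both H3K27ac lists among those that could be shown, with matches that end no more than 30 bases after the start. Zc3h4 (chr7:16401124-16401201, plus strand) shows the Sp1 motif GGGCGG, Ddit3 (chr10:127290557-127290636, plus strand) the ETS motif CCGGAAGT, and Alkbh5 (chr11:60537883-60537963, plus strand) the Nrf1 motif GCGCATGCG. Dusp1 (chr17:26508572-26508651, minus strand) shows the cAMP response element TGACGTCA, and Naca (chr10:128035619-128035664, plus strand) the Yy1 motif AAGATGGCG. Jun (chr4:95052211-95052290, minus strand) shows the Mef2 motif TAAAAATA, and Adamts1 (chr16:85803104-85803181, minus strand) the TATA box.
Zc3h4: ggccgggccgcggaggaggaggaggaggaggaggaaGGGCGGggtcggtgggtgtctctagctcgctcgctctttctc
Ddit3: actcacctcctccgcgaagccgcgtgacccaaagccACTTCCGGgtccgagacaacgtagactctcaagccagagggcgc
Alkbh5: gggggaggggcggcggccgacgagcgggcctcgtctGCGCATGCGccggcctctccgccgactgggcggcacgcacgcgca
Dusp1: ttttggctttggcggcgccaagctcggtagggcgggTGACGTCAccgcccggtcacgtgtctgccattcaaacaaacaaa
Naca: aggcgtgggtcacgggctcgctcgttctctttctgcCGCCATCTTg
Jun: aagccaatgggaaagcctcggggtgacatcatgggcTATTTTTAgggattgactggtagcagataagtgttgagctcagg
Adamts1: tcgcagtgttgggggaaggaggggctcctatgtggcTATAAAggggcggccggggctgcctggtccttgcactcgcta

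A further set shows the element TCTCGCGA at genes of cytosolic ribosomal proteins whose regions stood high among those that hold it. They are Rpl10a (chr17:28328498-28328577, plus strand), Rps19 (chr7:24884529-24884608, plus strand) and Rpl4 (chr9:64173096-64173175, plus strand).
Rpl10a: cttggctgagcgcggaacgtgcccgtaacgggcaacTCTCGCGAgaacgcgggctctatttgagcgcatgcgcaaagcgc
Rps19: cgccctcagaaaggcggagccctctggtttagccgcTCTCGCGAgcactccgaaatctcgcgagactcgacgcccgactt
Rpl4: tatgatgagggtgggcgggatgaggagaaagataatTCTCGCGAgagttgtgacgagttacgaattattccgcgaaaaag

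The range of CpG content is shown by 200 bases up to and just after the starts of Chd7 (chr4:8690751-8690950, plus strand), a chromatin remodeler, and Cd53 (chr3:106790120-106790319, minus strand), a tetraspanin of leukocytes. Their regions were among the 5 with the highest and the 5 with the lowest CpG content, and every CpG is in capitals. The Chd7 stretch held 34 CpG and the Cd53 stretch 1. The start of Cd53 lies just outside its region, which begins downstream of it.
Chd7: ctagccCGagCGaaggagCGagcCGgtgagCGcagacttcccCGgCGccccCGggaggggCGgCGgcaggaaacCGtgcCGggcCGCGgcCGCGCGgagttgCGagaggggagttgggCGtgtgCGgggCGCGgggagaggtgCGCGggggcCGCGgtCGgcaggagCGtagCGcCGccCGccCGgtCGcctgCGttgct
Cd53: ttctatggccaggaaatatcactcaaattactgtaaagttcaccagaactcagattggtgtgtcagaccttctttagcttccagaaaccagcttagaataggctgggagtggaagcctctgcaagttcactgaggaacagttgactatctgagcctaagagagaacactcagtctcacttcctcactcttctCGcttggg

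A pair of genes read away from each other is shown by Itfg1 and Phkb, which encodes the beta subunit of phosphorylase kinase. The stretch (chr8:85840901-85841022, plus strand) runs across both starts, which lie 81 bp apart, and the bases between the starts are in capitals.
Itfg1 and Phkb: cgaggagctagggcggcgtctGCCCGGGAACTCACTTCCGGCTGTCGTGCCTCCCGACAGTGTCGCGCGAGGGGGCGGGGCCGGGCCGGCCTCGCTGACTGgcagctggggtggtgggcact

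The values at the borders of the rule were as follows. The widest region was that of Csnk1g2, a casein kinase gene, with 9987 bp, and the narrowest promoter region left out for its width without a Maf peak was that of Pik3ip1 with 10002 bp. A region beside Sec23a and that of Lck ended 983 bp from a start, whereas those nearest to Platr17 and Fam168a lay 1006 and 1010 bp away and were left out. The region of Pds5b, a cohesin cofactor, lay 1 base from a Maf peak, that of Slc41a1 62 bases and that of Tspyl1 158 bases. On the other side, the region of Fbxo44 shared 68 bases with a Maf peak and that of Ercc1 132 bases. The lists shared least at Arhgap32, with 0.349% of the joined bases, and at Capn3, a muscle calpain, with 0.502%.

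Most regions were compact and alike in the 2 H3K27ac samples. The median joined width was 2164 bp (10th to 90th percentile 1217 to 5109 bp). The median covered width was 1970 bp in replicate 1 and 2056 bp in replicate 2. The lists shared a median of 88.4% of the joined bases, and at least 80% of them in 75.6% of regions. A single deposited region of each list made up 9497 of the regions, and 397 held more than 1 from a list. The median list percentile was 23.0 in replicate 1 and 22.6 in replicate 2. Places in the lists went together across the 9894 regions (Spearman rho 0.988), and so did the logarithms of the widths (Pearson r 0.939). Both are descriptions across regions of 2 samples that passed the same rule, and regions are not replicates. Promoter regions with Maf were wider, at 2756 and 2848 bp in replicates 1 and 2, and stood nearer the top, at 11.8 and 11.9. H3K27ac regions away from promoters (23504 in both lists and under 10000 bp) covered 1558 and 1592 bp, stood at 50.5 and 50.1, and shared a median of 78.3% of their bases.

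The regions were concentrated in the upper part of the lists. They made up 44.5% and 45.2% of the top 10% of the lists of replicates 1 and 2, 51.9% and 52.9% of the next 10%, and 1.74% and 1.60% of the last 10%. The rule left out promoter regions of 10000 bp or more, with median percentiles of 0.897 and 0.866, and those with Maf, at 11.8 and 11.9. The lower share in the top 10% is therefore partly fixed by the rule and is description only. Among the highest places were those of Zc3h4, which encodes a zinc finger protein that limits noncoding transcription (percentiles 0.339 and 0.318), and Dusp1, a phosphatase of MAP kinases (0.430 and 0.425). Synpo, an actin-associated protein, had 0.475 and 0.469. Also high were Sox6, a repressor of slow fiber genes, with 0.448 and 0.531, and Ubtf, a factor of ribosomal RNA genes, with 0.550 and 0.598. The widest regions included those of Acvr1b, a receptor for activins (9960 bp), Dusp6 (9922 bp), Ski (9917 bp), Id3 (9909 bp), Pdgfra (9878 bp) and the glucose transporter gene Slc2a4 (9824 bp). Replicates differed at Slc2a4, where they covered 6477 and 9689 bp. Among the narrowest were those of Srp54b with 502 bp and of Zfp418 and Zxdb with 508 bp. A width of 501 bp was the commonest in both lists (13.3% and 14.8% of deposited regions), and 104 and 109 of the 9894 regions were covered by just that width.

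Whether a promoter region held a Maf peak went with its width, and the comparisons of CpG content, gene number and the Maf core over the whole region are therefore also given below within the 4 bins of width from 1000 bp on. Under 1000 bp only 5 regions held Maf. The comparisons of gene pairs and of the 17 motifs at the start were not divided by width. Among promoter regions under 1000 bp, 1.36% held Maf (95% Clopper-Pearson interval 0.443 to 3.14). The share was 5.49% (4.82 to 6.22) from 1000 to 2000 bp, 8.28% (7.31 to 9.33) from 2000 to 3000 bp, 12.8% (11.4 to 14.4) from 3000 to 5000 bp and 18.4% (16.3 to 20.7) from 5000 to 10000 bp. The bins held 363, 3994, 2714, 1779 and 1044 regions without Maf. Width and Maf were both used by the rule, and a longer region has more bases in which a peak can fall. No share per base was taken, so the rise with width is description only. All intervals cover counting error over regions only and do not measure the spread between animals.

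The mark lay across the transcript start and reached farther into the gene than away from it. For each region the start nearest to its centre was used. The start was inside the region in 9599 cases, 1 to 500 bp outside in 189 and farther outside in 106. Regions reached a median of 897 bp before and 1173 bp after the start. In 8471 regions with 1 gene and the start inside, the part after the start was the longer in 72.0% (95% Clopper-Pearson interval 71.0 to 72.9), by a median of 318 bp over all of them. For promoter regions with Maf the same share was 70.1% (66.9 to 73.2), and those reached 1155 bp before and 1580 bp after the start. At 1000 bp after the start, 55.4% and 58.2% of the regions without Maf were covered in replicates 1 and 2, and at 1000 bp before it 36.0% and 38.1%. At 2000 bp the values were 21.0% and 22.2% after and 10.4% and 10.7% before.

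**Figure D1:**
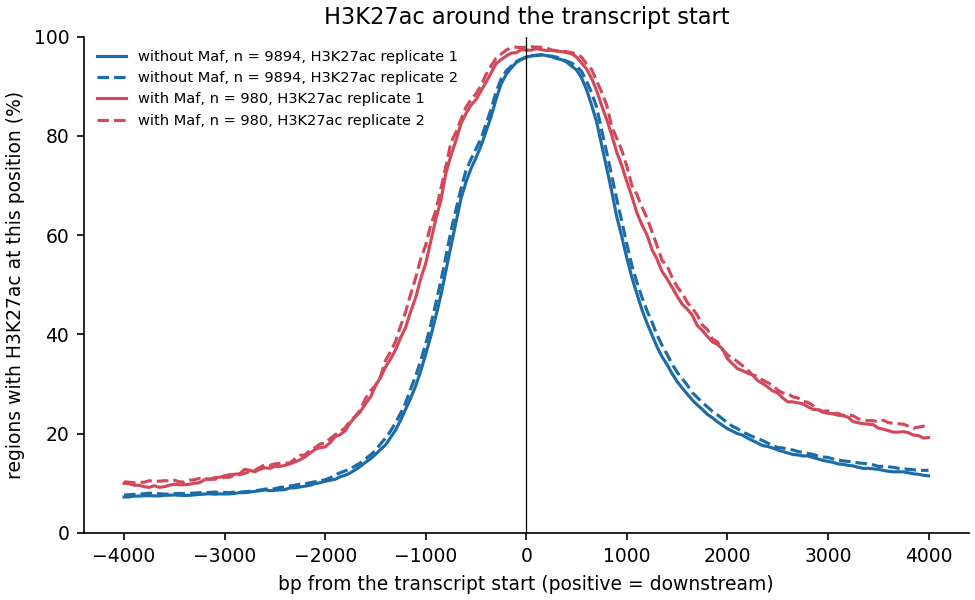
Share of promoter regions with H3K27ac (%, y axis) by distance from the transcript start (bp, x axis, positive into the gene), for 9894 regions without Maf and 980 with Maf, each H3K27ac replicate as a line. The replicates run together, the curves fall off more slowly after the start than before it, and the regions without Maf are the narrower set (55.4% and 58.2% covered at 1000 bp after the start, against 70.8% and 73.9% with Maf).

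The promoters were rich in CpG at their starts. A sequence was called CpG rich when its GC content was at least 50% and its observed over expected CpG at least 0.6. In the 500 bp centred on the start, 74.2% of the regions without Maf were CpG rich (95% Clopper-Pearson interval 73.3 to 75.0) and 75.5% of those with Maf. The difference was -1.32 points (95% Newcombe interval -4.06 to 1.59) and cannot be told from 0 over all widths. Within bins of width it was -3.60 points (-8.26 to 2.04) from 1000 to 2000 bp, -4.57 (-8.86 to 0.698) from 2000 to 3000 bp and 3.33 (-3.51 to 10.3) from 5000 to 10000 bp. From 3000 to 5000 bp the share was lower without Maf, at 68.9% against 78.2% with Maf, a difference of -9.39 points (-14.5 to -3.60). Over all protein-coding genes the share was 49.5%, and over the 9092 genes with no H3K27ac region within reach it was 16.7%. These gene values were taken at the most 5′ start of each gene and not at the start nearest to a region's centre, so the choice of starts differs from that of the regions. The median observed over expected CpG at the start was 0.789 without Maf (quartiles 0.605 and 0.911), 0.807 with Maf and 0.231 for genes with no region.

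**Figure D2:**
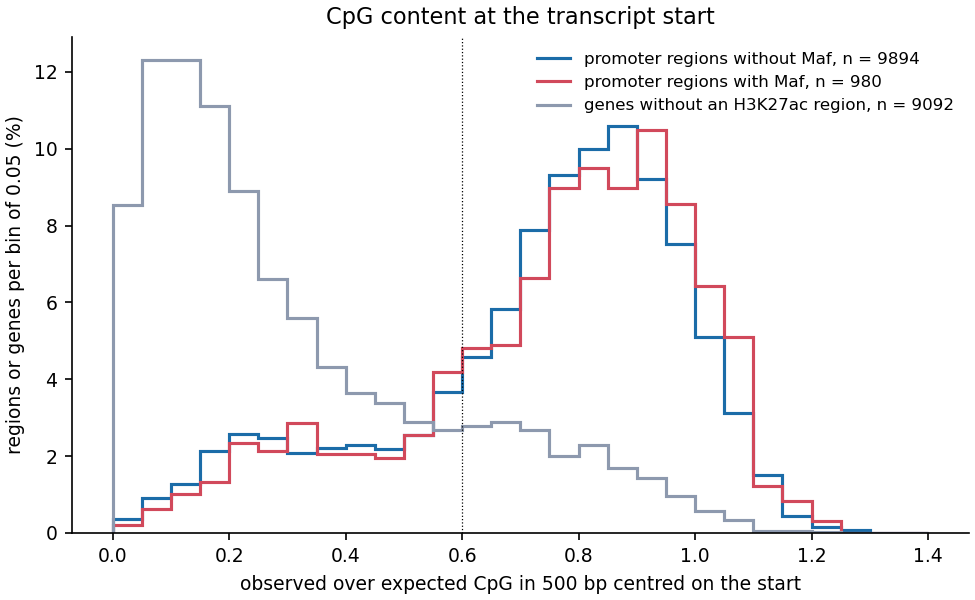
Distribution of observed over expected CpG in 500 bp centred on the transcript start (x axis) as percent of regions or genes in bins of 0.05 (y axis). The dotted line marks 0.6. Promoter regions without and with Maf overlie each other, with medians of 0.789 and 0.807, and both have a smaller hump at low values, where the 9092 genes with no H3K27ac region lie (median 0.231).

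Measured over the whole region, 41.4% of the regions without Maf were CpG rich (40.4 to 42.4) and 34.8% of those with Maf, a difference of 6.58 points (3.40 to 9.66). A higher share without Maf was not seen within bins of width. The difference was -0.834 points (-7.35 to 5.77) from 1000 to 2000 bp, 2.15 points (-4.38 to 8.55) from 2000 to 3000 bp, -6.32 points (-12.5 to -0.569) from 3000 to 5000 bp and -0.867 points (-5.28 to 2.45) from 5000 to 10000 bp. Of H3K27ac regions away from promoters 1.03% were CpG rich. Regions without Maf whose start was CpG rich numbered 7340 and covered 1950 and 2034 bp in replicates 1 and 2, at list percentiles of 21.0 and 20.7. The other 2554 covered 2074 and 2180 bp and stood lower, at 32.0 and 30.7. Among the highest observed over expected values over the whole region were 1.12 at Pdxp and 1.10 at Chd7, whose region covered 3612 and 3638 bp. The lowest values were 0.0209 at Cd53, with 1 CpG in 1428 bp, 0.0278 at Trim30c and 0.0308 at Zbtb46.

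A part of the regions had annotated starts of more than 1 gene within reach. Starts of a single gene were in reach of 8758 regions, 1103 had 2 genes and 33 had 3 or more. The share with 2 or more was 11.5% without Maf and 11.4% with Maf, a difference of 0.0531 points (95% Newcombe interval -2.18 to 2.01). Within the bins of width the difference lay between -2.10 and 2.95 points, and each interval held 0. A pair of genes read away from each other from starts at most 1 kb apart was found in 806 regions without Maf, or 8.15%, and in 6.94% of those with Maf, a difference of 1.21 points (-0.633 to 2.74). The start was CpG rich in 88.7% of the regions with such a pair (86.3 to 90.8) and in 73.0% of those with 1 gene. Regions with a pair covered 1980 and 2058 bp in replicates 1 and 2 and stood at 18.7 and 18.6, against 23.9 and 23.5 for regions with 1 gene. The pairs highest in the lists were Dcaf6 with Mpc2, a subunit of the mitochondrial pyruvate carrier (percentiles 0.996 and 1.12), Atp6v1a with Naa50 (1.06 and 1.20) and Itfg1 with Phkb (1.08 and 1.31). The most genes in a region were 4, as at the histone genes Hist2h2ac, Hist2h2ab and Hist2h2be with Bola1.

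Of 17 motifs searched, 9 had a higher share, by point value, in the promoters of regions without Maf than in all protein-coding promoters. Both strands of 300 bp were searched, from 250 bp before to 50 bp after the start, and the TATA box only on the gene's strand 20 to 40 bp before it. GGGCGG, the Sp1 motif, was in 63.4% of the regions without Maf (62.5 to 64.4), against 44.9% of all protein-coding promoters and 21.3% of those with no H3K27ac region. The ETS motif CCGGAAGT was in 7.83% against 4.93% of all promoters, the Nrf1 motif GCGCATGCG in 3.39% against 2.55%, and the cAMP response element TGACGTCA in 3.14% against 2.50%. The Yy1 motif AAGATGGCG was in 3.34% against 1.77% and the element TCTCGCGA in 2.03% against 1.41%. At least 1 of these 5 motifs or ACTACAATT, the core read by Znf143, was in 18.3% of the regions without Maf, 17.1% of those with Maf and 12.4% of all promoters. The E-box CACGTG, read by Myc and clock factors among others, was in 9.98% against 7.77% of all promoters. The muscle E-box CAGCTG, bound by myogenic factors, was in 15.9% (15.1 to 16.6) against 15.6% (15.1 to 16.1). ACTACAATT alone was in 0.647% (0.499 to 0.825) against 0.527% (0.435 to 0.632). For CAGCTG and ACTACAATT the intervals overlap, and no difference can be read from them. Windows of all genes were taken at the most 5′ start. With the most 5′ start of the gene in the region, 8 motifs were more frequent than among all genes, the Sp1 motif was in 61.1% of the regions without Maf, the Yy1 motif in 2.79% and CAGCTG in 15.6%. CpG content went with several of these motifs. Within the regions without Maf, CCGGAAGT was in 9.81% of CpG rich starts and 2.15% of the others.

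The other motifs had a lower share, by point value, than among all genes. The TATA box was in 0.940% of the regions without Maf (0.759 to 1.15), 2.41% of all promoters and 4.51% of those with no H3K27ac region. The Mef2 motif TAAAAATA was in 1.18% against 1.99% of all promoters, the AP-1 motif TGANTCA in 4.63% against 6.70%, and the Tead motif CATTCC in 11.1% against 13.2%. CCAAT, the core of the NF-Y site, was in 35.5% against 38.9%, and the Maf core TGCTGAC in 3.18% against 4.02%. The motif of estrogen-related receptors, TCAAGGTCA, was in 0.243% against 0.444% and the MEF3 motif TCAGGTTTC in 0.424% against 0.527%. The intervals of the MEF3 motif overlap (0.306 to 0.573 against 0.435 to 0.632), and those of TCAAGGTCA meet at 0.361. A match says only that these letters were present.

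Between promoter regions without and with Maf, 3 of the 17 motifs differed by more than the 95% Newcombe interval. The Maf core TGCTGAC was in 3.18% without Maf and 6.84% with Maf, a difference of -3.65 points (-5.44 to -2.19). The Sp1 motif was in 63.4% and 69.8%, a difference of -6.38 points (-9.34 to -3.29). The Mef2 motif was in 1.18% and 1.94%, a difference of -0.756 points (-1.84 to -0.0241). These intervals are not adjusted for the number of motifs. The remaining 14 intervals held 0. A pair of genes read apart was more often in reach of regions with TCTCGCGA (18.9%) and with CCGGAAGT (15.2%). Without the motif the shares were 7.92% and 7.54%.

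**Figure D3:**
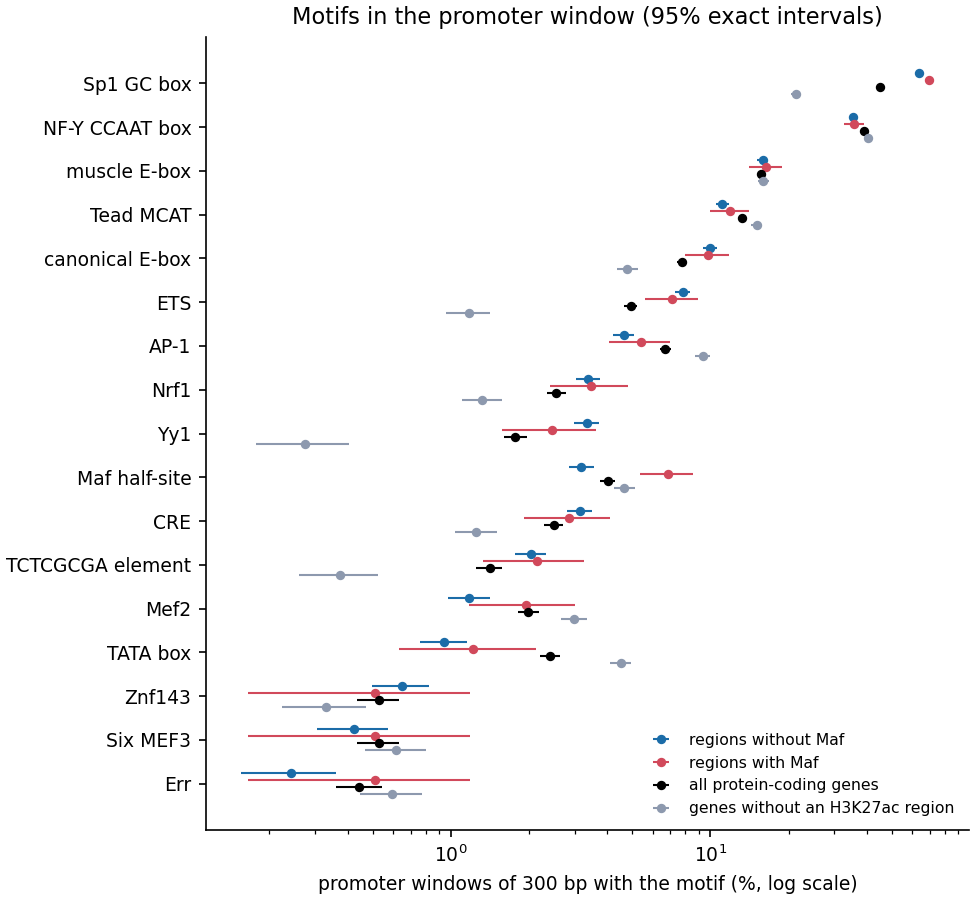
Share of promoter windows of 300 bp with each of 17 motifs (%, log scale, x axis), with 95% exact intervals, for regions without Maf, regions with Maf, all protein-coding genes and genes with no H3K27ac region. Regions without Maf exceed all genes for motifs such as GGGCGG (63.4% against 44.9%) and lie below them for the TATA box (0.940% against 2.41%), and the Maf core, the Sp1 motif and the Mef2 motif are those whose difference from regions with Maf exceeds its interval.

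Over the whole region the Maf core TGCTGAC occurred without a called peak in many places. It was held by 27.8% of the regions without Maf and 45.5% of those with Maf, a difference of -17.7 points (-20.9 to -14.5). Per 100 kb there were 13.4 copies without Maf, 18.4 with Maf and 19.1 in H3K27ac regions away from promoters. Within bins of width the difference was -6.94 points (-12.9 to -1.74) from 1000 to 2000 bp, -12.6 (-19.0 to -6.51) from 2000 to 3000 bp, -8.80 (-15.2 to -2.40) from 3000 to 5000 bp and -11.2 (-17.3 to -4.50) from 5000 to 10000 bp. The distance to the nearest Maf peak had a median of 98995 bp. It was at most 1000 bp for 24 regions, at most 10000 bp for 660 (6.67%) and at most 50000 bp for 3133 (31.7%).

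At the level of genes, 10556 of 21827 protein-coding gene names, or 48.4%, had a region without Maf at 1 or more starts. Another 5.53% had only regions with Maf or with Maf among wider regions, 1.39% only a region of 10000 bp or more without Maf, 3.07% a region in 1 list and 41.7% none. At another start, 130 of the 10556 genes also had a region with Maf, and such genes are counted below with those without Maf. The 45 gene lists described next are read against the 48.4%, with their regions counted in the same way. By point value 31 of them lay above it, but some of their intervals hold 48.4%. Examples are the tricarboxylic acid cycle (66.7%, 38.4 to 88.2) and the vacuolar ATPase (63.6%, 40.7 to 82.8). The 48.4% also counts the genes with no region, so a list can exceed it without having less Maf. Counts of genes with Maf are read against the 5.53%. That share also counts the genes with no region, so a list whose genes all have regions can exceed it for that reason. Wide regions cannot join the set whatever their Maf state, so a low share of a list with wide regions is partly fixed by the width limit.

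Lists of the translation machinery had these regions at between 78.4% and 93.6% of their genes. Of the mitochondrial ribosomal proteins 73 of 78 had one, or 93.6% (95% Clopper-Pearson interval 85.7 to 97.9), and only Mrpl45, Mrps18b, Mrps36 and Mrps6 had Maf instead, while Mrpl19 had a region in 1 list. Their regions covered a median of 1610 and 1622 bp in replicates 1 and 2. The highest was that of Mrps23, with 8246 and 8177 bp. Of the cytosolic ribosomal proteins 75 of 83 had one (90.4%). Maf lay at 5, among them Rpl32, Rps12, Rps27 and Rps27l, and Rpl3l, the form made in striated muscle, had a region of 10000 bp or more. The 2 with no region were Rpl10l and Rpl39l, which are known from testis. TCTCGCGA was in 16 of the 76 promoters of these regions, or 21.1% (12.5 to 31.9), against 2.03% of all 9894. Aminoacyl-tRNA synthetases, which load amino acids on tRNAs, had 32 of 35, and the other 3 (Eprs, Farsb and Wars2) had Maf. Translation initiation factors had 40 of 51, Maf lay at Eif1, Eif2b4, Eif3d, Eif4a2, Eif4e and Eif4e3, and the 3 with no region were Eif3j2, Eif4e1b and Eif5a2.

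Lists of genes that make, process and export RNA had them at between 75.0% and 88.2%. RNA polymerase subunits had 24 of 28, with Maf at Polr2a, Polr2h and Polr3e. The core spliceosome had 30 of 34, led by Snrpb with 6830 and 7514 bp. Mediator subunits had 28 of 33, led by Med25 with 6678 and 7256 bp. RNA decay genes of the exosome and nonsense-mediated decay had 17 of 20 and nucleoporins 15 of 20. All 30 spliceosome regions (88.4 to 100), all 17 of RNA decay (80.5 to 100) and all 15 of nucleoporins (78.2 to 100) were CpG rich at the start. Over all 9894 the share was 74.2%. Each of these lists had a median list percentile between 17.4 and 22.9 in both replicates. A pair of genes read apart was found in 10 of the 24 polymerase regions (41.7%) and in 23 of the 74 regions of mitochondrial ribosomal proteins (31.1%), against 8.15% of all 9894.

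Lists of protein quality control and membrane traffic gave shares between 63.6% for the vacuolar ATPase and 88.9% for the autophagy genes. Proteasome subunits had 40 of 49 (81.6%), with the highest place at Psme1, an interferon-inducible activator whose region also reaches Fitm1 (8060 and 8326 bp), and Maf at Psmc1, Psmc2, Psmc5, Psmd11, Psmd6 and Psme4. Without a region were Psma8, which is known from testis, Psmb11, which is known from the thymus, and Psme2b. Chaperones had 21 of 25, with Maf at Cct3, Hspd1 and Hspe1. Autophagy Atg genes had 16 of 18, and ubiquitin-conjugating enzymes 25 of 34, led by Ube2g1 with 5263 and 5436 bp. Genes of COPI, COPII and the exocyst had 24 of 32, and the other 8, among them Sec31a and Copb1, had Maf, which was the highest share with Maf among these traffic and quality control lists (25.0%). Rab GTPases had 39 of 59 and the vacuolar ATPase 14 of 22. Its 5 genes with no region, Atp6v0a4, Atp6v0d2, Atp6v1b1, Atp6v1c2 and Atp6v1g3, include subunits known from kidney and bone.

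Genes of mitochondrial respiration also had these regions for the most part. Respiratory complex I, which oxidises NADH, had 34 of 38 (89.5%), Maf at Ndufab1 and Ndufv3, and regions of 10000 bp or more at Ndufb10 and Ndufb9. Complexes II to IV with ATP synthase had 42 of 49 (85.7%) and Maf at Cox6c, Cox8a, Sdhb and Uqcrb. The 3 with no region were Cox6b2, Cox7b2 and Cox8c, which are known from testis. The regions of this list covered 2385 and 2491 bp in replicates 1 and 2 and stood at 10.3 and 10.5, against 23.0 and 22.6 over all 9894. The highest were those of Atp5j, shared with the ETS factor gene Gabpa (6162 and 6330 bp), Atp5g2 (4636 and 4191 bp) and Atp5l (5516 and 5007 bp). Mitochondrial protein import had 23 of 25, with no region at Timm8a2 and Tomm20l. None of the 25 had Maf, but at the 5.53% of all genes a list of this size can have none. The tricarboxylic acid cycle had 10 of 15, with Maf at 3, among them Idh2 and Ogdh, and wider regions at Cs and Idh3a.

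Genes of chromatin, repair and division followed. Of the histone acetyltransferases and deacetylases, the enzymes that write and remove H3K27ac among other marks, 25 of 27 had a region without Maf (92.6%). Ep300 stood highest with 4432 and 3747 bp, Hdac4 had Maf, and Hdac6 had a region in 1 list. Lysine methyltransferases and demethylases had 27 of 35, with Maf at Kdm4a, Kmt2a, Kmt2b, Setd2 and Setd7. The zinc finger Zfp genes had 274 of 394 (69.5%), with narrower regions (1636 and 1662 bp) and GGGCGG in 46.8% (40.8 to 52.8) against 63.4% of all 9894. Fanconi and DNA repair genes had 28 of 39 and genes of DNA replication 15 of 23. Mitotic cyclins and kinases had 7 of 18 (38.9%, 17.3 to 64.3), an interval that holds the 48.4% of all genes. Of the others, 3 had a region in 1 list, and the 8 with no region included Cdk1, Plk1 and Mki67. None of the 18 had Maf, against 5.53% of all genes, and at that share a list this small can have none. The mitotic regions covered 1433 and 1530 bp. All 7 were CpG rich at the start (59.0 to 100), an interval that holds the 74.2% of all 9894.

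**Figure D4:**
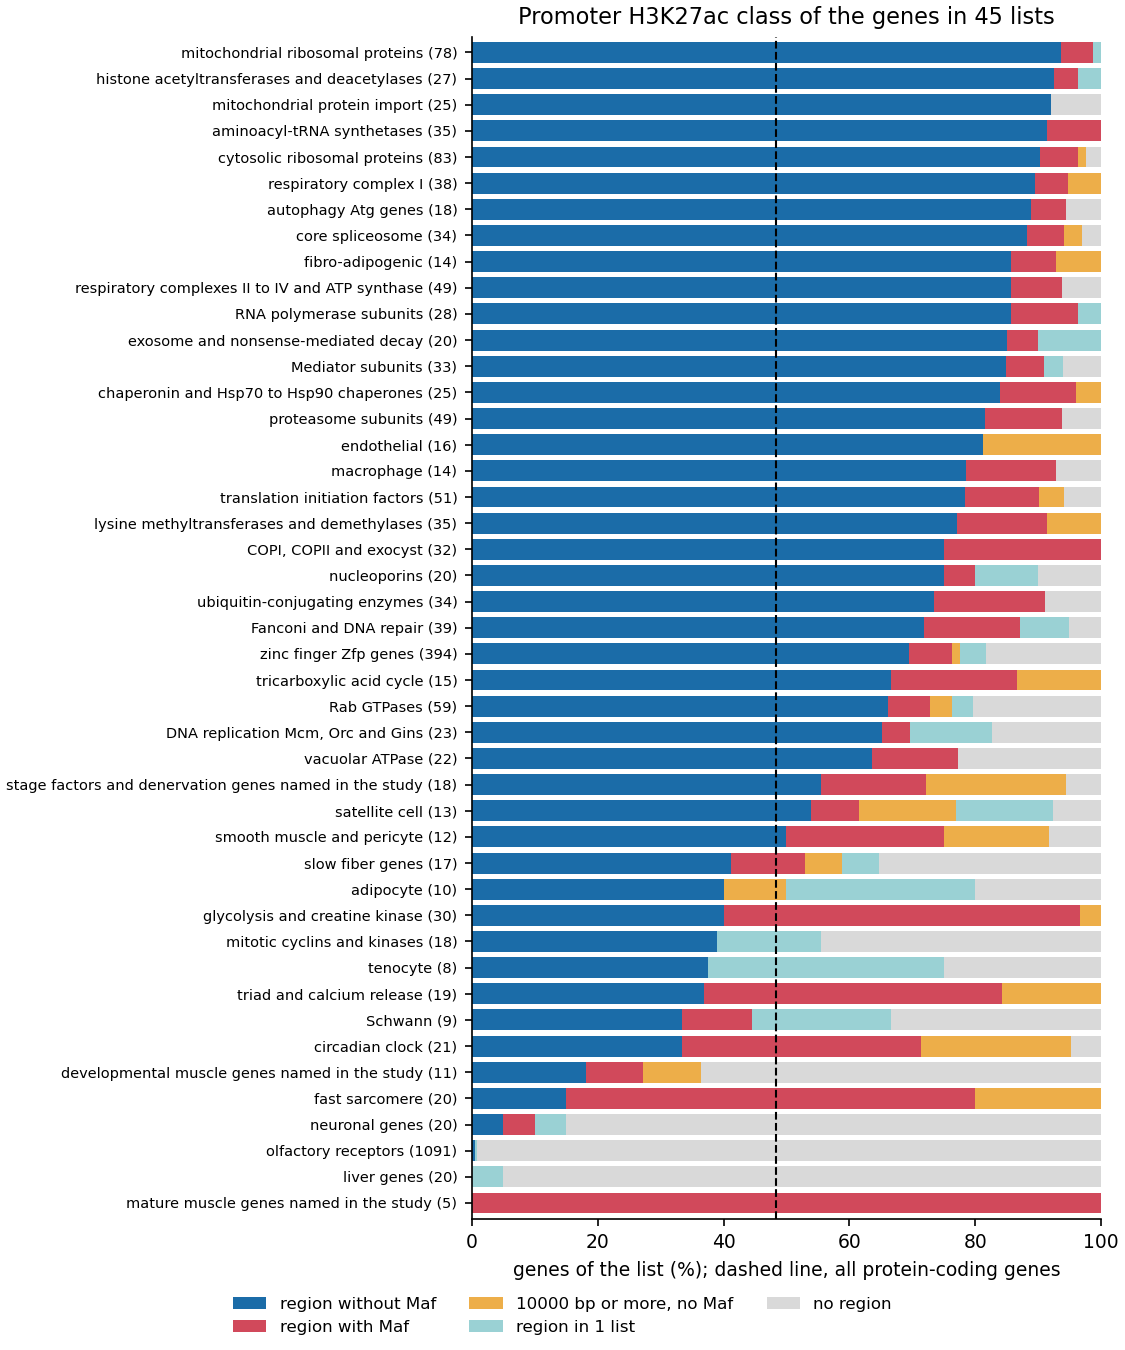
Share of the genes of 45 lists (%, x axis; number of genes in parentheses) by the class of their promoter H3K27ac, from regions without Maf at the left to no region at the right. The dashed line is the 48.4% of all protein-coding genes with a region without Maf. Mitochondrial ribosomal proteins reach 93.6%, fast sarcomere genes have 15.0%, and olfactory receptors 0.550%.

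Few genes of the fast sarcomere had a region without Maf under the width limit. Maf lay at 13 of 20 fast sarcomere genes (65.0%, against 5.53% of all genes), and 4 (Acta1, Pvalb, Tnnc2 and Tpm1) had regions of 10000 bp or more without Maf. The other 3 had a region without Maf (15.0%, 3.21 to 37.9), namely Tnni2, Myh2 and Ttn. Of these 3 genes, 1 also had a region with Maf at another start, which makes 14 of 20 with Maf at any start. Tnni2, the inhibitory troponin of fast fibers, covered 8701 and 9010 bp at percentiles of 0.679 and 0.765. Myh2, the myosin of type 2A fibers, covered 5252 and 5343 bp at 23.1 and 24.1, and the titin gene Ttn 3398 and 2922 bp at 33.2 and 36.2. None of the 3 starts was CpG rich (0 to 70.8), against 74.2% of all 9894. Among promoter regions of this list from 5000 to 10000 bp, 2 were without and 4 with Maf, against 1044 and 236 over all genes. From 3000 to 5000 bp there was 1 of each, and under 3000 bp there was none. Most genes of this list with Maf therefore had it in regions that the width limit bars. Over all genes, 217 of the 530 promoter regions of 10000 bp or more held Maf. The 5.53% also counts the 41.7% of genes with no region, whereas every gene of this list had one. The contrast of 65.0% with 5.53% is thus not one between genes with like regions. Without Maf replicate 2 the share of the list was 35.0%. The list includes Actn3, Mybpc2 and Myh4, which the study names for strong Maf binding in these same data. Glycolysis and creatine kinase genes had 12 of 30 (40.0%, 22.7 to 59.4), and 17 others had Maf, or 18 at any start. Genes of the triad and calcium release had 7 of 19 (36.8%, 16.3 to 61.6), and 9 others had Maf, or 10 at any start. Both intervals hold the 48.4% of all genes. Among promoter regions from 5000 to 10000 bp the glycolysis list had 5 without and 2 with Maf, and the triad list 2 without and 1 with Maf. Under 5000 bp each list had 1 region with Maf, so most of their genes with Maf had it in regions that the width limit bars.

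The glycolytic genes without Maf included some that stood high in the lists. Gapdh covered 8535 and 8864 bp at 0.584 and 0.618, the lactate dehydrogenase gene Ldha 6648 and 5492 bp at 1.62 and 1.94, and Ugp2 4806 and 5665 bp at 1.80 and 1.98. Eno1 covered 6349 and 6335 bp at 2.84 and 3.13. Its muscle paralog Eno3 was among the 17 with Maf, as were Ckm, Pygm, Pkm and Aldoa. At the triad, Jph1, a junctophilin that holds the membranes together, covered 8915 and 9316 bp at 0.833 and 0.940, and Cacng1, a subunit of the calcium channel, 5742 and 5802 bp at 2.80 and 2.74. Ryr1, Cacna1s, Atp2a1 and Jph2 had Maf.

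Genes of the circadian clock had 7 of 21 (33.3%, 14.6 to 57.0), 8 others with Maf, among them Arntl, Clock and Per2, or 9 at any start, and 5 with regions of 10000 bp or more, among them Per1 and Nr1d1. Csnk1e, a kinase that acts on the Per proteins, covered 8019 and 8253 bp at 1.89 and 1.66, Per3 3489 and 2824 bp at 4.85 and 5.18, and the nuclear receptor gene Rora 4622 and 4667 bp at 5.63 and 5.19. Without Maf replicate 2, and likewise with a width limit of 20000 bp, the share of the list was 57.1%.

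Slow fiber genes had 7 of 17 (41.2%), namely Actn2, Casq2, Csrp3, Myl3, Myoz2, Tnnc1 and Tpm3. Their regions covered 2375 and 1699 bp at percentiles of 52.4 and 59.5, lower in the lists than the 23.0 and 22.6 of all 9894. Tnnc1, the troponin C of slow fibers, covered 2897 and 4178 bp. Myh7, Tnni1, Tnnt1, Myl2, Sln and Myh7b had no region within reach. Maf lay at Atp2a2 and Mybpc1. Without Maf replicate 2 the share was 52.9%, the same as that of all genes under that setting.

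The genes of developing and mature fibers that the study names were read the same way. Of 11 developmental genes only Klf5 (2242 and 1968 bp) and Tead4 (2228 and 1799 bp at the higher-placed of its regions) had a region without Maf, and 7 had none, among them Chrng, Myh3, Myh8 and the fusion gene Mymk. Mymx had a region of 10000 bp or more without Maf and Myog a region with Maf. The 5 mature genes Actn3, Atp2a1, Ckm, Mybpc2 and Myh4 all had Maf. The study names them for strong Maf binding in these same data, so this result was fixed by their choice. The regions of Atp2a1, Ckm and Myh4 were also of 10000 bp or more, which the width limit bars. A further 18 genes of the study include factors of the stages, Cacna1s, and Gapdh and Vcl, whose proteins serve there as loading controls. The others were measured in Cacna1s knockout myonuclei, where the study likens their changes to those of denervated muscle. Of these 18 genes 10 had a region without Maf, both controls included. With a width limit of 5000 bp the share of these 18 was 38.9%, against 43.6% of all genes. Foxo1 covered 6274 and 6672 bp at 1.96 and 1.99, and Foxo3 4083 and 4346 bp at 2.24 and 2.22. Both encode forkhead factors of atrophy. Musk, the kinase of the neuromuscular junction, covered 4386 and 5068 bp, and Hdac9 3827 and 3980 bp with a Maf peak 3825 bp away. The acetylcholine receptor gene Chrna1 covered 501 bp in both replicates at 91.6 and 84.8, Chrnb1 1405 and 1705 bp, and Chrnd had no region. The Maf gene itself had a region of 10000 bp or more without a Maf peak. These lists were taken from genes named in the study and are no independent choice.

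Markers of other cell types of the muscle had regions without Maf more often than the 48.4% of all genes for endothelial, fibro-adipogenic and macrophage lists. In bulk tissue, fewer cells of a type and less of the mark per cell cannot be told apart. Endothelial markers had 13 of 16 (81.2%, 54.4 to 96.0), while Egfl7, Erg and Sox18 had regions of 10000 bp or more. None of the 16 had Maf, against 5.53% of all genes, so in a list this small no lack of Maf can be read. Esam covered 5199 and 5762 bp at 9.46 and 6.19, Pecam1 7109 and 6547 bp at 14.7 and 11.4, and the receptor gene Tek 4227 and 3599 bp at 12.9 and 13.1. Fibro-adipogenic markers, those of connective tissue progenitors, had 12 of 14 (85.7%), with Maf at Col1a1 and a wider region at Dcn. Pdgfra covered 9878 and 9804 bp at 2.86 and 2.52, Cd34 8237 and 8644 bp at 2.71 and 3.01, and Col3a1 8900 and 8056 bp at 5.57 and 6.74. With a width limit of 5000 bp the shares were 37.5% for endothelial and 35.7% for fibro-adipogenic markers, against 43.6% of all genes.

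The remaining cell types were represented less evenly. Macrophage markers had 11 of 14 (78.6%) at percentiles of 43.3 and 52.3, with Maf at C1qa and C1qb and no region at Cx3cr1. Csf1r, the receptor that macrophages need, covered 4794 and 5248 bp. Satellite cell markers had 7 of 13, among them Pax7, the factor that defines these stem cells, with 5693 and 5858 bp at 30.1 and 30.4. Myod1 had Maf, Myf5 and Megf10 had a region in 1 list, and Calcr none. Smooth muscle and pericyte markers had 6 of 12, with Maf at Abcc9, Des and Myh11. For this list the replicates differed, with medians of 5124 and 6725 bp at 31.9 and 16.6. Acta2 covered 2930 and 4074 bp. With a width limit of 5000 bp the share was 8.33% for smooth muscle and pericyte markers and 30.8% for satellite cell markers, against 43.6% of all genes. Adipocyte markers had 4 of 10, tenocyte markers 3 of 8 and Schwann cell markers 3 of 9. Adipoq and Retn had no region, and neither did Mkx and Kera for tenocytes. Without H3K27ac replicate 1 the shares were 75.0% for tenocyte markers (37.5% with both lists) and 55.6% for Schwann cell markers (33.3% with both), against 50.3% of all genes. Without H3K27ac replicate 2 the share of adipocyte markers was 60.0% (40.0% with both), also against 50.3%.

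Lists of genes foreign to muscle were nearly empty. None of 20 liver genes had a region without Maf, which allows a share of up to 16.8% by the exact interval, and 19 had no region at all. Of 20 neuronal genes, Dlg4 had one, Camk2a had a region with Maf, Map2 had a region in 1 list, and 17 had no region. Of 1091 olfactory receptor genes 6 had one (0.550%), and none was CpG rich at the start (0 to 45.9, against 74.2% of all 9894).

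The lists differed in the width and CpG content of their regions without Maf. Machinery lists were mostly CpG rich at the start, and most had widths near or below those of all regions. Among the wider were lysine methyltransferases and demethylases (2394 and 2664 bp), complexes II to IV with ATP synthase (2385 and 2491 bp) and ubiquitin-conjugating enzymes (2259 and 2348 bp). All 9894 regions covered 1970 and 2056 bp with 74.2% CpG rich starts. Endothelial regions covered 4713 and 4744 bp and 2 of 14 were CpG rich (14.3%, 1.78 to 42.8), and fibro-adipogenic regions covered 5385 and 4677 bp with 4 of 15 (26.7%, 7.79 to 55.1). None of the 11 macrophage regions was CpG rich at the start (0 to 28.5), and they covered 2280 and 1701 bp. Glycolytic regions covered 3858 and 4652 bp with 7 of 12 CpG rich (58.3%, 27.7 to 84.8), an interval that holds the 74.2%. GGGCGG was in 5 of the 14 endothelial promoters (35.7%, 12.8 to 64.9) and 3 of the 11 macrophage promoters (27.3%, 6.02 to 61.0). Over all 9894 the share was 63.4%, which the endothelial interval holds. Neither list held CCGGAAGT or TCTCGCGA, which were in 7.83% and 2.03% of all 9894. Their intervals reach 23.2% for endothelial and 28.5% for macrophage promoters, so no lack of these motifs can be read.

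**Figure D5:**
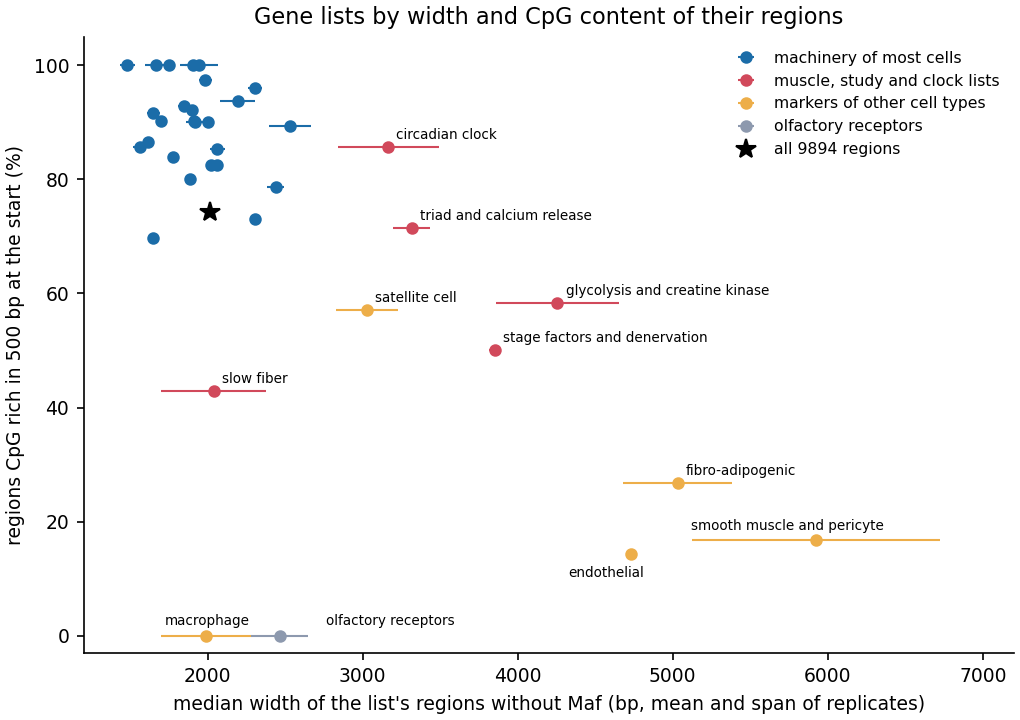
Gene lists with 6 or more regions without Maf, by the median covered width (bp, x axis, mean of the replicates with a line from 1 replicate to the other) and the share of regions that are CpG rich at the start (%, y axis). Most machinery lists gather at narrow widths and high CpG content. Exceptions in width include lysine methyltransferases and demethylases (2394 and 2664 bp) and complexes II to IV with ATP synthase (2385 and 2491 bp). Zfp genes are an exception in CpG content (69.8%). Markers of endothelial, fibro-adipogenic and smooth muscle cells lie at wider and CpG poor values, and macrophage markers are CpG poor but narrower (2280 and 1701 bp). The star marks all 9894 regions at 74.2%.

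By chromosome, the share of genes with a region without Maf was between 37.4% on X and 57.8% on chromosome 12, apart from Y with 2.19% (4 of 183 genes). On chromosome 7 it was 40.1% and on chromosome 14 it was 40.8%. Of the regions without Maf 3.49% lay on X, and of those with Maf 0.918%, a difference of 2.57 points (1.68 to 3.15). Under 3000 bp the shares on X were 3.69% (3.26 to 4.16) and 1.24% (0.458 to 2.69), and from 3000 bp on 2.98% (2.38 to 3.67) and 0.602% (0.124 to 1.75). The 4 regions on Y were those of Kdm5d, Eif2s3y, Uty and Ddx3y, which have widely used counterparts on X. Kdm5d covered 1130 and 1273 bp in replicates 1 and 2, Eif2s3y 1305 and 1159 bp, Uty 1968 and 1934 bp, and Ddx3y 1975 and 2103 bp. Neither Maf list held a peak on Y.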

How the data were processed

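Lists of 2 H3K27ac and 2 Maf ChIP-seq samples were used, and the 2 inputs were not used here. The deposited lists have 6 columns with positions and a score, which is 1 in every line as deposited by the authors and was used for nothing but that check. Regions were called per sample. The submitters' processing notes name bcl2fastq 2.17, FastQC, Bowtie2 2.3.2, Picard 2.10.3 and HOMER on GRCm38. For the Maf peaks the study names a false discovery rate limit. Other caller settings, the use of the input and the order of the lists are not given in the sources used here, and read depth is unknown.

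The members and the gene and motif lists were chosen with earlier results of these data known. Starts were those of protein-coding transcripts of the GENCODE basic set on GRCm38, and sequence came from the RefSeq copy of that build. Coordinates are 1-based, and some genes and sequences, with all sequence of 1 chromosome, are not reported here. Shares have 95% Clopper-Pearson intervals and differences of shares 95% Newcombe intervals, which cover counting error only. With 2 lists per antibody and no read counts no test over samples was made. Named genes were those the study names, up to 4 genes per list whose region stood highest in both H3K27ac lists, and those at the extremes of width, CpG, gene number, list place and the borders of the rule. Other genes are named as members of a class within their list, and were chosen after their values were seen. Python 3.11.15, numpy 2.4.6, pandas 2.3.3, SciPy 1.17.1 and matplotlib 3.10.9 were used, and the counting steps were tested on simulated data. Alternatives were the reach, the width limit, the joining distance, the overlap between lists, the distance to Maf, the choice of starts, the motif window and leaving out each list.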

Additional observations from a re-analysis of the deposited data

How the results depend on the processing

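Over 13 alternative settings the number of regions lay between 8847 and 10864 and the number of genes between 9524 and 11548. The share of regions that were CpG rich over their whole length, 41.4%, was 39.8% with a reach of 2 kb, 43.6% with only the 5′ end of each gene, 45.4% with a width limit of 5000 bp, 40.3% with 20000 bp and 39.7% with the full GENCODE set. It was 74.2% in 500 bp at the start, and lay between 40.8% and 45.2% when 1 list was left out. The share with starts of 2 or more genes, 11.5%, was 12.4% with a reach of 2 kb and 13.6% with only the 5′ ends. The difference in CpG rich share between regions without and with Maf, 6.58 points, was 2.13 points under 5000 bp and 10.2 points under 20000 bp. In 500 bp at the start it was -1.32 points with an interval of -4.06 to 1.59, which cannot be told from 0, and it lay between 6.58 and 20.8 points when 1 list was left out, the highest without Maf replicate 2, where only 10 regions held Maf. The causes were not tested. The full GENCODE set and the difference at the start were chosen after seeing the data. Of 585 recomputed shares of gene lists 569 lay within the 95% interval of the main value, and 10 of 45 lists changed their side of the share of all genes. Between 8 and 9 of the 17 motifs were, by point value, more frequent than among all genes in the alternative windows and starts. No paired analysis was possible because each comparison is between regions of the same joined lists and not between samples. Depth limits cannot be given, since the lists hold no read counts.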
